A study of Mus musculus with 8 samples.

Results

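Transcripts typical of blood endothelium, lymphatic endothelium and pericytes were followed in 8 RNA sequencing libraries made from sorted mesenchymal cells of mouse large intestine. The 32 genes are 20 of blood endothelium, 5 of lymphatic endothelium and 7 of pericytes. They were chosen by symbol as known markers, with earlier results of these data known, and all 32 were found among the 24346 genes listed in each library. The sorting gate kept cells that were negative for CD45 and EpCAM, lacked the endothelial protein CD31, carried gp38 and much PDGFRα, and lacked Ly6C. It names no antibody specific to pericytes.

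Of the untreated cells, 1 library had the genotype Cxcl12 flox/flox and 1 the genotype Foxl1cre; Cxcl12 flox/flox, called the control and the knockout library here. In the knockout the Foxl1 promoter drives Cre, so deletion is limited to cells that express or have expressed Foxl1. Both carry the floxed allele, and their strain and age are not given. The other 6 libraries came from cells of C57BL/6 mice treated with 1 mM GABA and 20 mM taurine, 3 at 0 h and 3 at 6 h. None of the 8 libraries was a 6 h library without the amino acids, so the amino acids and elapsed time cannot be told apart. Whether the cells were cultured, and whether the 3 replicates are separate animals, are points not given in the sources used here. The p-values therefore cover the spread among these libraries alone, and that spread may be technical.

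Endothelial cells line blood and lymphatic vessels. Blood endothelium grows and is kept under VEGF-A and angiopoietin signals, and ETS and SoxF transcription factors drive many of its genes. Lymphatic endothelium is set by Prox1 and depends on VEGF-C acting on Flt4, and it releases Ccl21, which guides dendritic cells and T cells into lymph. Pericytes wrap capillaries, are recruited by PDGF-B through Pdgfrb, and share several surface proteins with fibroblasts and smooth muscle.

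The labels were checked first. Cxcl12, the floxed chemokine gene, was lower in the knockout, with 739.7 FPKM (fragments scaled by transcript length and library size) against 1298 in the control. In the 6 amino acid libraries Cxcl12 lay between 860.4 and 969.4 FPKM. Pdgfra was at 201.8 and 225.7 FPKM in control and knockout, and podoplanin (Pdpn, gp38) at 96.08 and 91.7 FPKM. Foxl1 was at 10.24 and 11.57 FPKM in these libraries but between 0.1095 and 0.289 FPKM in the other 6. Ly6c1, part of the antigen that the gate excluded, was nevertheless at 140.9 FPKM in the control and 89.59 in the knockout library. Depth was estimated from the steps in which low values move: about 4910000 fragments in the control, 6160000 in the knockout and 16700000 to 20400000 in the other 6.

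Levels of the 32 genes differed widely. In the control library the summed FPKM was 227.7 over the blood endothelial genes, 10.63 over the lymphatic genes and 141.7 over the pericyte genes. Ramp2, which forms the adrenomedullin receptor with its partner, had 97.53 FPKM there, and Eng, a coreceptor for BMP and TGF-β ligands, had 48.53 FPKM. Pdgfrb had 60.22 FPKM and Kcnj8, the pore of the vascular ATP-sensitive potassium channel, had 31.49 FPKM. By contrast Pecam1, which encodes the CD31 that the gate excluded, had 4.859 FPKM, and Cdh5 (VE-cadherin), the junction protein that defines endothelium, had 0.5773 FPKM. Erg, an endothelial ETS factor, had 0.205 FPKM. Pecam1, Cdh5 and Erg thus lay far below the most abundant of the listed genes. In these bulk libraries, fewer cells of a type and less RNA per cell cannot be told apart.

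**Figure D1:**
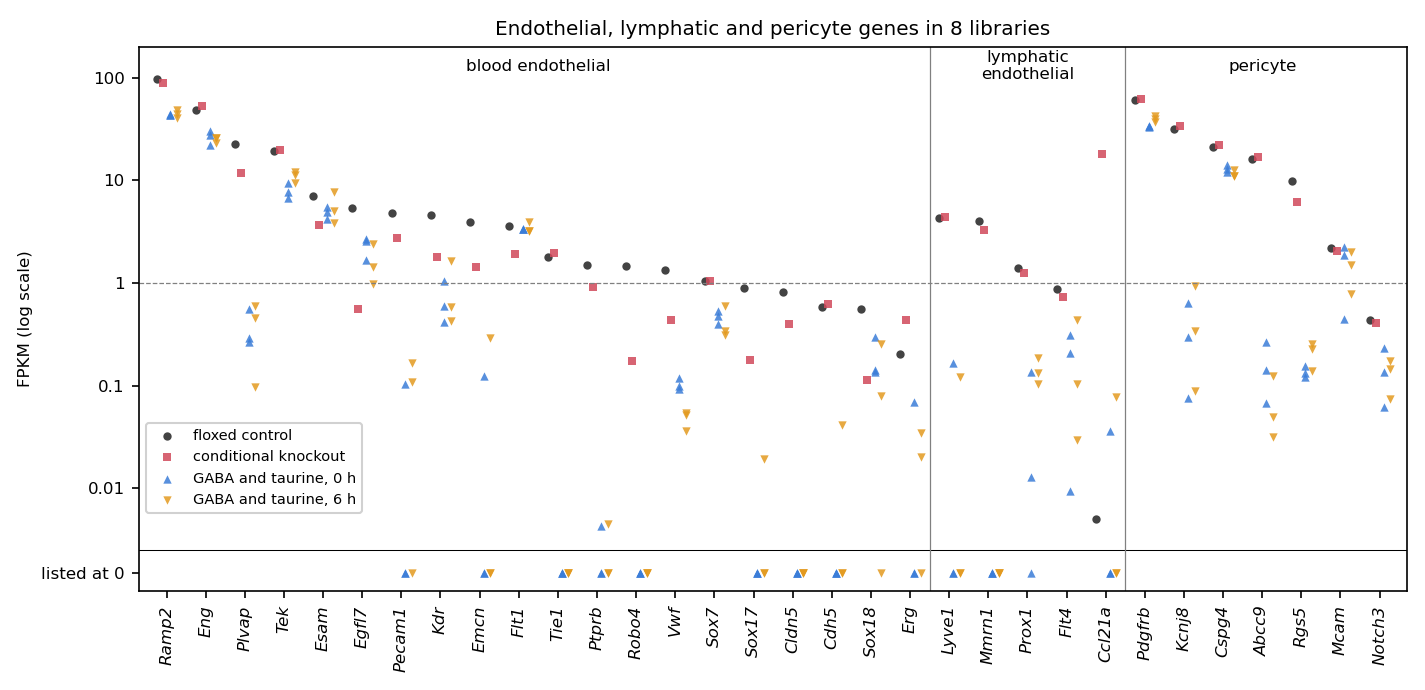
FPKM of the 32 genes in 8 libraries on a log scale, 1 point per library, with values of 0 on the lowest line and the dashed line at 1 FPKM. Black circles are the control, red squares the knockout, blue triangles 0 h and orange triangles 6 h. Ramp2, Eng, Tek, Esam, Flt1, Pdgfrb and Cspg4 lie above 1 FPKM in all 8 libraries, and most lymphatic points of the 6 amino acid libraries lie below 0.2 FPKM or at 0.

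The genotype comparison asked what the sorted cells contained when Cxcl12 was deleted through Foxl1-Cre. Most blood endothelial genes were lower in the knockout library, while 4 of the 5 lymphatic genes and 6 of the 7 pericyte genes had counting intervals of the ratio that spanned 1. Egfl7, Emcn and Kdr were lower by at least 2-fold on the log2(FPKM + 1) scale, and Ccl21a alone was higher by that much. Of the 23 listed genes averaging 1 FPKM or more, 3 were thus 2-fold lower and 1 was 2-fold higher. Over all 14949 genes with that mean, 2.22% were 2-fold lower and 1.36% 2-fold higher. Kdr and Emcn (log2 difference -1.03) lay just past the limit and Plvap (-0.88) just short of it. Egfl7, Emcn and Kdr all average under 5 FPKM. With 1 library per genotype there was no test, and no difference has a replicate check.

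The receptors for VEGF-A were both lower in the knockout library. Kdr, the main signalling receptor, had 4.573 FPKM in the control and 1.78 in the knockout, a ratio of 0.389 with a 95% counting interval from 0.283 to 0.53. The interval is an exact binomial one, but the 129 and 63 fragments it rests on are estimates. It covers counting error only, as there is 1 library per genotype. Since the fragments carry no molecular identifiers, amplified copies count as separate fragments, and the interval may be too narrow. Flt1, which binds VEGF-A and can act as a decoy, had 3.622 and 1.927 FPKM, a ratio of 0.532 with an interval from 0.399 to 0.718. The angiopoietin receptors did not follow. Tek (Tie2), at 19.41 and 19.86 FPKM, had a ratio of 1.02 with an interval from 0.9 to 1.16. Tie1, its partner, had 1.782 and 1.94 FPKM.

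Surface and junction proteins of blood vessels were mostly lower as well. Plvap, which forms the diaphragms of capillary fenestrae, had 22.52 FPKM in the control and 11.75 in the knockout, a ratio of 0.522 with an interval from 0.416 to 0.654. Emcn (endomucin), a sialoglycoprotein of capillaries and veins, had 3.97 and 1.439 FPKM, a ratio of 0.363 with an interval from 0.202 to 0.608. Pecam1 had 4.859 and 2.748 FPKM, and its interval ran from 0.391 to 0.804 around a ratio of 0.565. Esam, a tight junction adhesion protein, had 7.123 and 3.662 FPKM, and Cldn5, the main endothelial claudin, had 0.8236 and 0.3945 FPKM on too few fragments for an interval. Cdh5 was the exception among junction genes, with 0.5773 FPKM in the control and 0.6283 in the knockout. Its interval from 0.467 to 2.62 leaves a wide range of ratios.

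Several genes with few fragments had the lowest ratios. Egfl7, a protein that endothelial cells secrete into the vessel matrix, had 5.402 FPKM in the control and 0.5569 in the knockout, from an estimated 32 and 4 fragments. Its log2 difference was -2.04, and its ratio of 0.103 had an interval from 0.0256 to 0.281. Robo4, a guidance receptor of endothelium, had 1.466 and 0.1742 FPKM, from 34 and 5 fragments. Vwf, the clotting glycoprotein stored in Weibel-Palade bodies, had 1.332 and 0.4399 FPKM, a ratio of 0.33. Ptprb, the phosphatase that restrains Tek and Cdh5, had 1.489 and 0.9183 FPKM. Robo4, at a log2 difference of -1.07, had a mean under 1 FPKM and so was not among the 2-fold calls, and Vwf was short of 2-fold at -0.70.

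The SoxF transcription factors, which act together in vessel identity, gave different ratios. Sox17 had 0.885 FPKM in the control and 0.1766 in the knockout, from 13 and 3 fragments. Sox18 had 0.5637 and 0.1125 FPKM, from an estimated 4 fragments and 1 fragment. Sox7 had 1.038 and 1.035 FPKM, a ratio of 0.998. Erg had 0.205 and 0.4366 FPKM, with a ratio interval from 0.51 to 12.4. Among the abundant genes, Eng (48.53 and 52.6 FPKM) and Ramp2 (97.53 and 89.86 FPKM) had intervals that spanned 1.

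Counted together, 11 of 18 blood endothelial genes with enough fragments (at least 10 over the pair) had a ratio interval wholly below 1 and 0 had one wholly above. The same held for 11.9% of 15970 genes below and 18% above. The median log2 difference of the 13 blood endothelial genes averaging 1 FPKM or more was -0.645, against 0.036 over all genes tested. In the knockout 10 of the 13 were lower, against 45% of all genes tested. This list describes 2 libraries only. Fragments, also those behind the shares over all genes, rest on the longest coding transcript of each gene. With the shortest one, 6 rather than 12 of the 32 genes had an interval below 1. Kdr, Flt1, Plvap, Vwf, Robo4 and Ptprb kept it, whereas Pecam1, Emcn, Esam and Rgs5 then spanned 1, and Egfl7 and Sox17 had too few fragments.

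**Figure D2:**
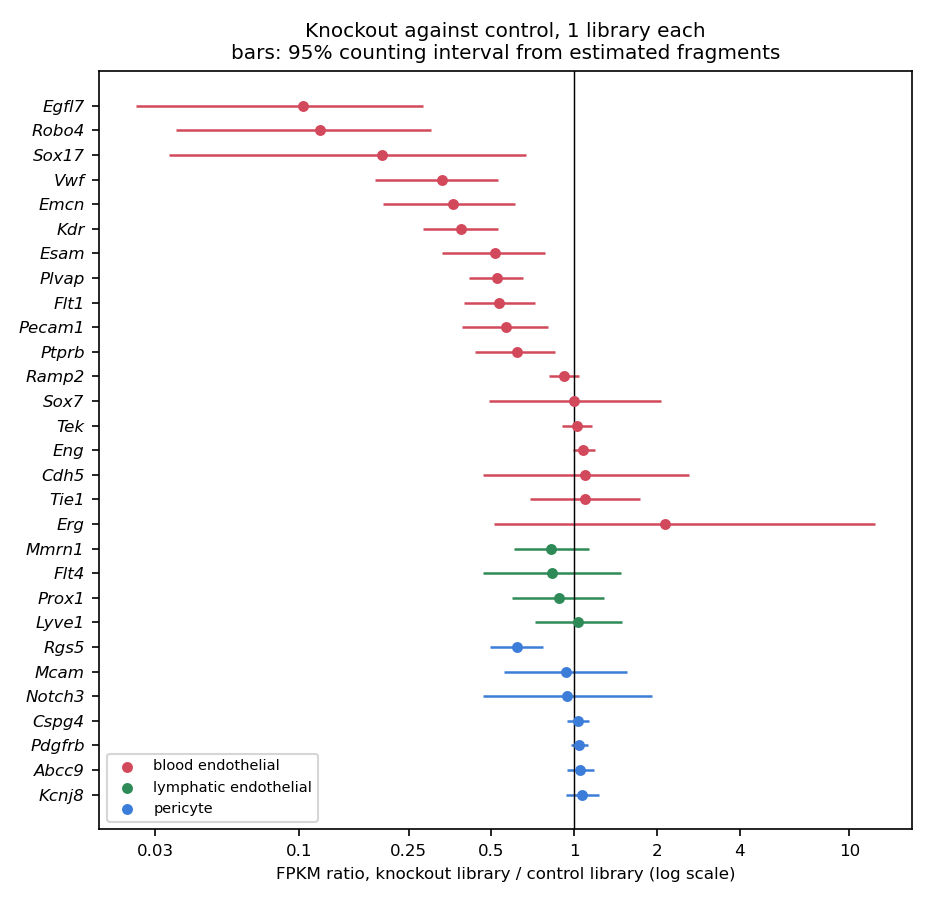
Ratio of knockout to control FPKM on a log scale for the listed genes with at least 10 estimated fragments over both libraries, leaving out Ccl21a, with bars for the 95% counting interval. Red marks blood endothelial, green lymphatic and blue pericyte genes. The 11 lowest red bars lie wholly left of 1, as does Rgs5 among the pericyte genes, and the green bars all cross 1.

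Promoters of the genes that were 2-fold lower are shown because ETS and SOX factors are known to act on many endothelial genes. RefSeq (GRCm38.p6) gave a promoter for 20 of the 32 genes. Emcn and Kdr are those 2-fold lower genes with a single promoter given, and each window runs from 250 bases before to 50 bases after its start. The RefSeq bounds of Kdr reach to base 75979072, beyond its window, so the window may not cover every start. Capitals mark the letters AGGAAG (ETS) or AACAAT (SOX) on either strand.
Emcn, chr3:137340828-137341127, plus strand: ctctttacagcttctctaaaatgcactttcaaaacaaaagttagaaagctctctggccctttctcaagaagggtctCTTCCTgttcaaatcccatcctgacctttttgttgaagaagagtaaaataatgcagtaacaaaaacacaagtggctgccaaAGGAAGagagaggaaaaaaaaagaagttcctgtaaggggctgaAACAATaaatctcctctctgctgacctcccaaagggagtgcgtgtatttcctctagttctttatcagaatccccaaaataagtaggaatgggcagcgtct
Kdr, chr5:75978406-75978705, minus strand: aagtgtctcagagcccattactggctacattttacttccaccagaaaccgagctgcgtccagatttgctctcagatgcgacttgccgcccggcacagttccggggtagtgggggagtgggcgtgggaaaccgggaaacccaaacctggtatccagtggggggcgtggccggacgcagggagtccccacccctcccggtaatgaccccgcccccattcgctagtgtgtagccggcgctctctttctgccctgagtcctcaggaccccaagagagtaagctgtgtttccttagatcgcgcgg
The Emcn window holds both sets of letters and the Kdr window neither. The ETS letters occurred in 7 of 10 blood endothelial genes with a promoter, 1 of 4 lymphatic and 0 of 6 pericyte genes, and in 38.4% of all 27025 genes with a promoter, counted the same way. The SOX letters occurred in 3 of 10, 1 of 4 and 0 of 6, and in 12.2% of all genes. A match is a description of these letters, not a binding site.

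Ratios of the lymphatic genes lay near 1, with the exception of Ccl21a, which has several near-identical copies in the genome. Flt4, the VEGF-C receptor, had 0.8797 FPKM in the control and 0.7303 in the knockout. Lyve1, a hyaluronan receptor of lymphatic capillaries and some macrophages, had 4.302 and 4.424 FPKM. Prox1, the transcription factor of lymphatic fate, had 1.413 and 1.248 FPKM, and Mmrn1, a secreted multimerin, had 4.029 and 3.323 FPKM. The ratio intervals of these 4 genes spanned 1, the narrowest running from 0.606 to 1.13 for Mmrn1. Lyve1 had a ratio of 1.03 with an interval from 0.723 to 1.49, so a difference of moderate size was not detectable at this depth.

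Ccl21a (chromosome 4, 42772860 to 42773991, GRCm38) was listed at 0.005023 FPKM in the control and at 18.24 in the knockout. Gm1987, another listed Ccl21 gene, showed the reverse, with 34.12 FPKM in the control and 0.3689 in the knockout. Ccl21b, Ccl21c and Gm13304 were listed at 0 in all 8 libraries. Added together, the family had 34.12 FPKM in the control and 18.61 in the knockout, a ratio of 0.546 and a log2 difference of -0.84. The direction for Ccl21a alone, a log2 difference of 4.26, therefore turns when the copies are summed.

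The Ccl21 copies are shown because so few bases separate those that could be compared. The sequence of Gm1987 was not compared here. GENCODE M21 places its RefSeq transcript on an unplaced scaffold, under the gene name Ccl21a and with 402 coding bases. The coding sequences of Ccl21a, Ccl21b, Gm10591, Gm13304 and Gm21541 in GENCODE M21 also have 402 bases each. Each of the other 4 has the same pair of substitutions from Ccl21a, T84A and C194T, with the Ccl21a base first and positions counted from the first coding base. That is an identity of 99.5%. Coding bases 71 to 210 of both forms follow, with the differing bases in capitals.
Ccl21a: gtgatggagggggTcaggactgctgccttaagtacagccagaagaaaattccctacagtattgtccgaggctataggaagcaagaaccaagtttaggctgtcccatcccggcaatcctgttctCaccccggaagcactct
Gm13304: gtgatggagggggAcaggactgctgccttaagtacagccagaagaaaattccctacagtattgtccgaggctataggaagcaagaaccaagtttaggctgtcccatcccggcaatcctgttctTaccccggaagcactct
Of these genes Ccl21a alone had a value above 0, with Gm10591 and Gm21541 not analysed here. Reads between the positions shown cannot assign a fragment to 1 of the compared copies, and the authors' placing of such reads was not stated in the sources used here. The level of Ccl21a by itself is thus uncertain in each library.

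Ratios of the pericyte genes lay near 1 except that of Rgs5. Rgs5, a regulator of G-protein signalling that marks pericytes, had 9.93 FPKM in the control and 6.143 in the knockout, a ratio of 0.619 with an interval from 0.495 to 0.77, or 0.344 to 1.19 with its shortest coding transcript. Pdgfrb had 60.22 and 62.84 FPKM, and Cspg4 (NG2), a surface proteoglycan, had 21.39 and 22.04 FPKM. Kcnj8 had 31.49 and 33.62 FPKM, and Abcc9, the sulfonylurea receptor subunit of the same channel, had 16.06 and 16.93 FPKM. Both channel subunits had a ratio close to 1, with intervals from 0.93 to 1.23 and from 0.945 to 1.18. Mcam (CD146), an adhesion protein of pericytes and endothelium, had 2.218 and 2.065 FPKM, and Notch3, the receptor of mural cell maturation, had 0.4354 and 0.4088 FPKM. The median log2 difference of the 6 pericyte genes averaging 1 FPKM or more was 0.051.

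Further vessel genes, from lists also chosen with earlier results known, were read in the same way. Of 15 other blood endothelial genes averaging 1 FPKM or more, 12 were lower in the knockout, against 45% of all genes tested. Of the 12, 0 were lower by 2-fold, and the median log2 difference of the 15 was -0.519. Of 24 genes of that list with enough fragments, 9 had an interval wholly below 1, 14 spanned 1 and 1 lay above. Over all genes the shares were 11.9% below and 18% above. Among the 15, the largest differences were in Gpihbp1, which carries lipoprotein lipase on capillaries (2.379 FPKM in the control and 0.8136 in the knockout), and Fabp4, a fatty acid carrier (12.53 and 6.297 FPKM). Gja4, a gap junction protein of arterial endothelium, had 1.614 and 0.4294 FPKM, and Icam2, an adhesion protein, 2.347 and 1.022 FPKM. Gpihbp1 rested on 17 and 7 estimated fragments, Gja4 on 12 and 4, and Icam2 on 13 and 7. The ratio interval of Icam2, from 0.145 to 1.16, spanned 1. Of 5 other lymphatic genes the median was -0.052, and Sema3d, a guidance semaphorin, had 4.017 and 5.436 FPKM.

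Of 11 other mural genes, Vtn (vitronectin), a matrix protein that brain pericytes make, was 2-fold lower, at 2.974 FPKM in the control and 0.6193 in the knockout. Ndufa4l2, a mitochondrial protein of pericytes, had 3.433 and 6.323 FPKM, with a ratio interval from 0.896 to 3.73 that spanned 1. Heyl, a target of Notch3, had 12.19 and 18.59 FPKM, and Steap4, a metalloreductase, 33.76 and 49.84 FPKM. The median log2 difference of the 11 was 0.137.

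Markers of other cell types also differed between the genotype libraries. The 12 epithelial markers summed to 100.7 FPKM in the control and 921.5 in the knockout, with 11 of 11 tested higher and 8 of them by 2-fold, and 0 of the 12 at 0 in either library. The 12 leukocyte markers summed to 548.2 and 648.5 FPKM, and 5 red blood cell markers to 84.64 and 92.33 FPKM. Of the antigens the gate excluded, Epcam stood at 4.18 and 14.63 FPKM and Ptprc (CD45) at 4.824 and 6.852 FPKM, both higher in the knockout, while Pecam1 was lower. Their part in the differences of the vessel genes was not tested.

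In the 6 amino acid libraries, a few vessel genes were abundant and others, Cdh5 and Pecam1 among them, were at or near 0. At least 1 FPKM in all 6 was seen for 7 of the 32 genes: Flt1, Tek, Esam, Eng, Ramp2, Cspg4 and Pdgfrb. Egfl7 reached it in 5 libraries, Mcam in 4 and Kdr in 2. Tie1, Cldn5, Robo4 and Mmrn1 were listed at 0 in all 6. Of the 20 listed genes with at least 1 FPKM in both genotype libraries, 11 (55%) were below 1 FPKM in all 6, against 20.7% of 13737 such genes overall. Listed at 0 in all 6 were 2 of the 20 (10%), near the 7.4% of the 13737. The genotype and amino acid libraries may have been scaled apart, so these levels are set side by side and were not tested.

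Among blood endothelial genes, Cdh5 was listed at 0 in 5 of the 6 libraries and at 0.04108 FPKM in 6 h replicate 2. Sox17 was also above 0 only in that library, at 0.01922 FPKM. Pecam1 was above 0 in 3 libraries, with a highest value of 0.1649 FPKM. Emcn, at 3.97 FPKM in the control library, was above 0 in 2 libraries, and its highest value was 0.2881 FPKM. Plvap, at 22.52 FPKM in the control, lay between 0.09701 and 0.5998 FPKM. Of the genes at 0 throughout, a count of 3 fragments would have given at most 0.0441 FPKM for Tie1, 0.143 for Cldn5, 0.0375 for Robo4 and 0.0416 for Mmrn1.

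All 5 lymphatic genes were below 1 FPKM in every one of the 6 libraries, where their sum lay between 0.1445 and 0.6419 FPKM. Lyve1 was above 0 in 2 libraries, with a highest value of 0.1674 FPKM. Prox1 was above 0 in 5 libraries and reached 0.1841 FPKM, and Flt4 was above 0 in 6 and reached 0.432 FPKM. The Ccl21 genes summed to 0.07241 FPKM in 0 h replicate 1 and 0.1554 FPKM in 6 h replicate 2, and were at 0 in the other 4.

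The pericyte genes split. Pdgfrb (33.08 to 42.3 FPKM) and Cspg4 (11.04 to 14.02 FPKM) were present in all 6 libraries, at lower FPKM than in the genotype libraries. Both channel subunits were near 0 instead: Kcnj8 lay between 0.07602 and 0.9393 FPKM, against 31.49 FPKM in the control library, and Abcc9 between 0.03128 and 0.2686 FPKM, against 16.06 FPKM. Rgs5 lay between 0.1202 and 0.2555 FPKM, against 9.93 FPKM. Notch3 was low in all 8 libraries, with at most 0.2334 FPKM in these 6. The order of the pericyte genes thus differed between the sets, with Kcnj8 next after Pdgfrb in the control library and Cspg4 next after it in the 6.

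Of other cell types, the leukocyte markers summed to 3.128 to 14.94 FPKM and the epithelial markers to 2.635 to 8.086 FPKM in these libraries, below those in both genotype libraries. The smooth muscle markers summed to 1135 to 1256 FPKM, against 688.9 FPKM in the control, but they differed in direction. Acta2, Tagln, Smtn and Actg2 were higher than in the control in every one of these libraries. Myh11 (0.291 to 1.177 FPKM, against 15.78 in the control), Cnn1, Des, Synpo2, Lmod1 and Myocd were lower. The fibroblast markers summed to 980.8 to 1135 FPKM, against 15983 FPKM in the control library. Pdgfra, which is on that list, did not follow the sum, at 152.3 to 227.3 FPKM against 201.8 in the control. Pdpn, which the gate required, lay at 280.7 to 303.7 FPKM, against 96.08 in the control. How these sums and values bear on the vessel genes was not tested.

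The time comparison asked what differed between the 0 h and 6 h libraries with GABA and taurine, whichever of treatment and elapsed time lay behind it. No listed gene passed limma's threshold. The 9 genes averaging 1 FPKM or more had a median log2 difference of 0.0207, 5 of them higher and 4 lower, against -0.00185 over 10910 genes. Of those 10910 genes, 49.5% were higher. Over all genes limma called 0.238% higher and 0.312% lower at an adjusted p of 0.05. Unadjusted, 2 of the 9 (22.2%) had a p under 0.05, against 9.38% of all genes.

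Tek had the smallest p of the 9. It stood at 7.644, 6.745 and 9.375 FPKM at 0 h and at 9.363, 12.2 and 11.26 FPKM at 6 h. The groups overlap by a narrow margin, 0 h replicate 3 lying just above 6 h replicate 1. The mean was 7.92 ± 1.34 FPKM at 0 h and 10.94 ± 1.45 FPKM at 6 h (SD, n = 3 each). The log2 difference was 0.42 with a standard error of 0.136 and a 95% interval from 0.128 to 0.72, and limma's adjusted p was 0.319. Over 13 fits it lay between 0.327 and 0.538, and its adjusted p between 0.126 and 0.656.

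Pdgfrb was the listed gene above the filter whose groups did not overlap. It stood at 33.08, 34.06 and 34.27 FPKM at 0 h and at 36.98, 42.3 and 39.96 FPKM at 6 h, all 3 later values higher. The log2 difference was 0.23 with a standard error of 0.073, and limma's adjusted p was 0.321. Of all genes tested, 7.25% had groups that did not overlap with 6 h higher, and 8.01% with 6 h lower. Cspg4, the other abundant pericyte gene, stood at 13.07, 14.02 and 12.2 FPKM at 0 h and at 11.04, 12.51 and 11.04 FPKM at 6 h. Its groups overlap, and the log2 difference was -0.17 (limma adjusted p = 0.657).

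For 5 of the 6 blood endothelial genes tested, all except Tek, the 95% interval of the difference included 0. Ramp2 stood at 43.54, 44.41 and 43.93 FPKM at 0 h and at 40.91, 48.8 and 44.47 FPKM at 6 h. The interval of its log2 difference ran from -0.14 to 0.18. Eng stood at 30.3, 27.86 and 22.39 FPKM and then at 23.04, 25.94 and 26.15 FPKM, with the 6 h values inside the range at 0 h. Flt1 stood at 3.378, 3.358 and 3.387 FPKM at 0 h and at 3.227, 3.197 and 3.976 FPKM at 6 h. The interval was -0.32 to 0.14 for Eng and -0.28 to 0.34 for Flt1. The groups of all 3 genes overlap, and limma's adjusted p was 0.957 for Ramp2, 0.857 for Eng and 0.971 for Flt1.

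Other genes varied widely between replicates. Esam stood at 4.181, 4.954 and 5.514 FPKM at 0 h and at 7.69, 3.827 and 5.042 FPKM at 6 h, both its highest and its lowest value falling at 6 h. Egfl7 stood at 2.661, 1.657 and 2.588 FPKM and then at 1.448, 2.379 and 0.9755 FPKM. Its log2 difference was -0.36 with an interval from -0.84 to 0.11. Mcam stood at 2.227, 1.877 and 0.449 FPKM at 0 h and at 0.7872, 2.003 and 1.505 FPKM at 6 h, and the interval of its difference ran from -0.63 to 0.63. Limma's adjusted p was 0.897 for Esam, 0.655 for Egfl7 and 1 for Mcam. A 1.5-fold change of Mcam on this scale would lie inside that interval.

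**Figure D3:**
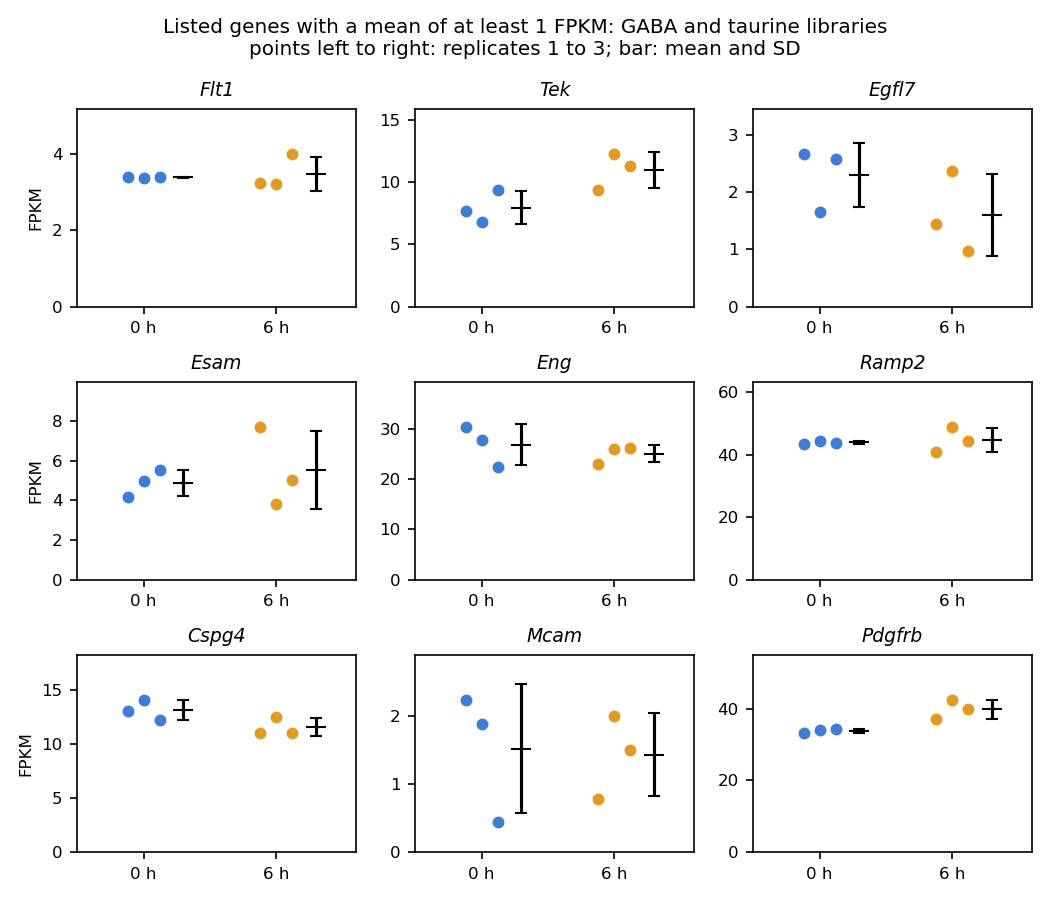
FPKM of the 9 listed genes averaging 1 FPKM or more at 0 h (blue) and 6 h (orange), 1 point per library, with a bar for the mean and SD of 3 libraries. The 6 h points of Pdgfrb lie above all its 0 h points, and the points of the other 8 genes overlap.

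Among genes under the filter, Kdr stood at 0.4141, 0.5974 and 1.036 FPKM at 0 h and at 0.4246, 1.649 and 0.5811 FPKM at 6 h. Its highest value, in 6 h replicate 2, rested on an estimated 181 fragments and the lowest, in 0 h replicate 1, on 49. Vwf stood at 0.1175, 0.09235 and 0.09912 FPKM at 0 h and at 0.05164, 0.03602 and 0.05437 FPKM at 6 h. Vwf's groups do not overlap, as was so with 6 h lower for 6.3% of the 17119 genes above 0. Fitted without a filter, it had a limma adjusted p of 0.712. The share with 6 h higher was 6.01%. Vwf and Pdgfrb were the only listed genes whose groups did not overlap.

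Many listed genes, low and abundant, had their highest value in the same library. Of the 28 listed genes above 0 in any of the 6 libraries, 13 (46.4%) had their highest value in 6 h replicate 2, against 16.2% of all genes above 0. Among the 18 with at least 20 estimated fragments in a library it was 7 (38.9%). The share of all genes under that fragment limit was not computed. The 13 were Pecam1, Cdh5, Kdr, Tek, Plvap, Emcn, Ramp2, Sox17, Ptprb, Flt4, Ccl21a, Kcnj8 and Pdgfrb, so blood endothelial, lymphatic and pericyte genes were all among them. In 6 h replicate 2, Ptprb, Ccl21a, Sox17 and Cdh5 rested on only 0.991, 1.03, 1.12 and 2.99 estimated fragments. Tek and Pdgfrb, which had the smallest limma p of the listed genes tested over time, thus also peaked in 6 h replicate 2. Kcnj8 had 0.9393 FPKM there, 39.7% of its sum over the 6 libraries, and Flt4 had 0.432 FPKM, 39.5% of its sum. This count was made after the values were seen. In 6 h replicate 2 the leukocyte markers summed to 13.78 FPKM. In the other libraries they summed to 3.128, 14.94 and 3.562 FPKM at 0 h and to 10.14 and 6.521 FPKM at 6 h. The red blood cell markers summed to 5.591 FPKM in 6 h replicate 2. Elsewhere they summed to 0.08365, 14.7 and 1.329 FPKM at 0 h and to 10.7 and 0.2754 FPKM at 6 h. The part of these cells in the count was not tested.

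**Figure D4:**
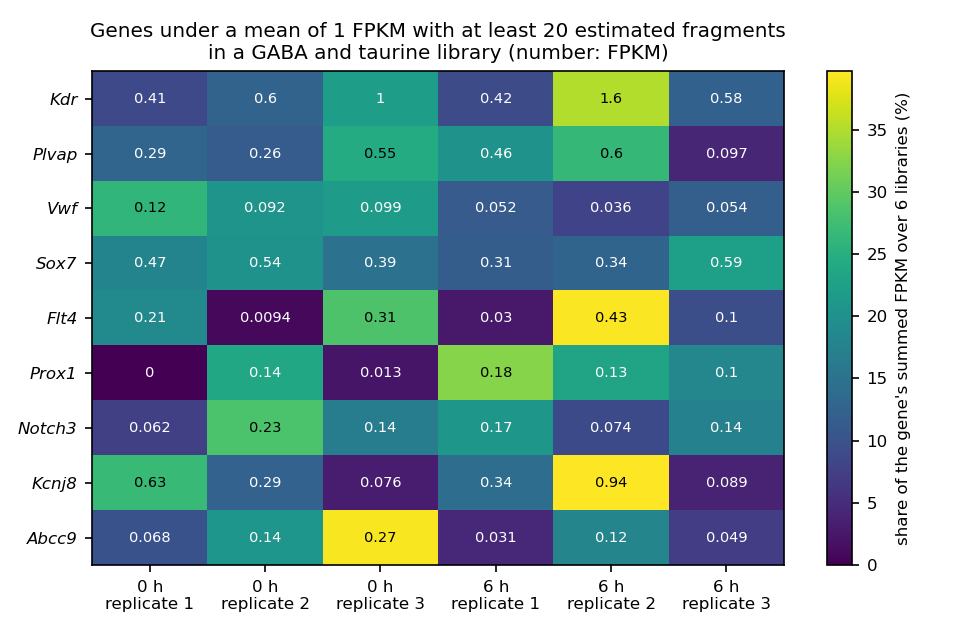
Share of each gene's summed FPKM found in each of the 6 amino acid libraries, in percent by colour, with the FPKM printed in the cell, for 9 genes under a mean of 1 FPKM with at least 20 estimated fragments in a library. Kdr, Plvap, Flt4 and Kcnj8 have their brightest cell in 6 h replicate 2, Abcc9 in 0 h replicate 3.

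The further vessel lists also had 0 genes past limma's threshold. Of 7 other blood endothelial genes tested 2 had an unadjusted limma p under 0.05. So had 1 of 4 other lymphatic, 0 of 10 other mural and 3 of 18 vascular ligand genes, against 9.38% of all genes tested. Fgl2, a secreted fibrinogen-like protein used here as a lymphatic gene, came nearest, at 14.83, 13.1 and 13.94 FPKM at 0 h and 19.7, 17.55 and 20.21 FPKM at 6 h (limma adjusted p = 0.0801). Cd34, a sialomucin of endothelium and of many fibroblasts, stood at 36.18, 44.57 and 39.04 FPKM and then at 50.85, 50.96 and 41.16 FPKM (limma adjusted p = 0.44). Tbx2, a transcription factor of the mural list, stood at 2.861, 2.42 and 1.588 FPKM and then at 1.509, 1.527 and 1.99 FPKM (limma adjusted p = 0.689). Epithelial markers summed to 3.802, 2.635 and 3.759 FPKM at 0 h and to 8.086, 4.826 and 7.936 FPKM at 6 h, with Krt8 past the threshold (limma adjusted p = 0.0319). Krt8 kept that call in 3 of 11 alternative fits, with adjusted p from 0.0316 to 0.244, and lost it without any 1 library other than 0 h replicate 3. The part of these cells in the vessel genes was not tested.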

How the data were processed

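Per the file headers, the deposited tables hold FPKM values, 1 table per library and 24346 genes in each. Cuffdiff 2.2.1, TopHat2 2.1.1, SAMtools 0.1.18 and Bowtie2 2.2.8 were used with build mm10, according to the submitters' processing notes. Annotation, strand use and the placing of reads with several matches were not stated in the sources used here. Per the labels, cDNA was made full-length with a SMART-Seq HT kit.

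Groups came from the labels. The 6 h and 0 h libraries were compared with limma 3.58.1 (R 4.3.3; empirical Bayes with an intensity trend) on log2(FPKM + 1) over 10910 genes averaging 1 FPKM or more, two-sided, with Benjamini-Hochberg adjustment over all of them and a threshold of 0.05. Differences on this scale understate changes near 1 FPKM. With 1 library per genotype, a 2-fold difference on that scale was counted over 14949 genes. The tables give no counts. Fragments were estimated from the steps of low FPKM values in genes with 1 transcript (lengths from GENCODE M21): 74.5% to 76.6% of these values lay within 0.1 of a whole number, where 20% would if evenly spread. Relative to the control, the knockout library had 1.25 times the depth. Intervals of ratios are exact binomial ones on the estimated fragments (SciPy 1.17.1), and gene and promoter positions are RefSeq's on GRCm38.p6, the assembly of mm10.

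The 32 genes and the lists of further vessel genes and cell type markers were chosen with earlier results of these data known. All genes at 1 FPKM or more in a library of a comparison are named, as are up to 4 per further list, by largest difference (genotype) or smallest p (time). Exoc3l2 of the other blood endothelial list and 1 of the vascular ligand list were not used here. The fit was tested on simulated data. Pseudocount, filter, scaling, trend, replicate block, fold, presence threshold and left-out libraries were varied.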

Additional observations from a re-analysis of the deposited data

How the results depend on the processing

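No listed gene passed the threshold in the time comparison under any of the fits run; the smallest adjusted p was 0.126, for Tek. Of 105 alternative values over the 9 listed genes, 96 kept their direction. Changing the filter, the trend or the replicate block leaves the difference itself as it was. Those values could not turn, and they say nothing about how stable the direction is. Mcam turned to 0.0819 with a pseudocount of 0.1 and to 0.0054 with libraries scaled to one median ratio. Leaving out 1 library gave -0.0544 to 0.0684 for Flt1, -0.117 to 0.307 for Esam, -0.209 to 0.0012 for Eng, -0.0426 to 0.0817 for Ramp2 and -0.358 to 0.22 for Mcam.

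Counts over all genes depended on the fit. The 26 higher and 34 lower genes became 0 and 0 without a filter and 0 and 0 without the trend, and 41 were higher with a filter of 5 FPKM. Leaving out 1 library gave 0 to 47 higher and 2 to 68 lower; the most came without 0 h replicate 3, and 0 higher and 2 lower came without 6 h replicate 2. The cause was not tested. Same-numbered replicates did not deviate together (correlations of deviations -0.044, 0.0126 and -0.0278), so the numbers were not taken as pairs. The fit with the replicate block called 14 higher and 9 lower and 0 listed genes.

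In the genotype comparison, 0 of the listed genes were 2-fold lower with a filter of 5 FPKM, which tests fewer genes, and 8 were lower at 1.5-fold. The share of all genes past 1.5-fold was not computed, so the 8 cannot be set against it. With the Ccl21 copies summed, 0 were 2-fold higher and Ccl21a turned to -0.84. With the shortest coding transcripts 6 genes had an interval below 1. Fewer listed genes then had enough fragments for an interval, and the share over all genes was not computed that way. At a limit of 0.1 FPKM, 12 genes were present in all 6 amino acid libraries. Without 6 h replicate 2, 6 rather than 4 listed genes were at 0 in the others. Both this count and the last alternatives for Ccl21 and transcript length were chosen after seeing the data. The genotype libraries are the shallowest, and low genes there rest on few fragments.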

Other observations

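Ligands that act on vessels were read as a further list. Of 19 averaging 1 FPKM or more in the genotype libraries, 14 were higher and 5 lower in the knockout, 0 by 2-fold. Of all 14949 genes tested, 8226 were higher and 6723 lower. The median log2 difference of the 19 ligands was 0.259, against 0.036 over all genes tested. Thbs1 (thrombospondin), an inhibitor of vessel growth, had 281.9 FPKM in the control and 432.8 in the knockout. Slit2, a ligand of roundabout receptors, had 1.883 and 3.223 FPKM. Angpt2, which modulates Tek signalling, had 2.366 and 1.464 FPKM, and Edn1, the precursor of endothelin, had 1.859 and 1.113 FPKM. The ratio intervals of Angpt2 (0.368 to 1.01) and Edn1 (0.259 to 1.24) spanned 1. With 1 library per genotype these values have no replicate check.

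At 6 h, 13 of 18 ligands tested were higher and 5 lower, with 0 past limma's threshold. Of all genes tested, 49.5% were higher. Vegfa stood at 47.92, 47.29 and 42.36 FPKM at 0 h and at 54.76, 50.9 and 56.69 FPKM at 6 h, with no overlap (limma adjusted p = 0.296). Thbs1 stood at 735.3, 792 and 860.7 FPKM and then at 869, 896.2 and 863.8 FPKM, also without overlap (limma adjusted p = 0.458). Efnb2, an ephrin of arterial endothelium, was lower in all 3 libraries at 6 h, at 28.15, 31.52 and 30.19 FPKM and then at 27.12, 26.87 and 25.16 FPKM (limma adjusted p = 0.51). Among all genes tested, 7.25% had no overlap with 6 h higher, and 8.01% had none with 6 h lower.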
